A study of Mus musculus with 24 samples.

Results

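The autophagy machinery described here comprised 33 genes, chosen by name as core components of the pathway, out of 55291 gene rows in the deposited tables. All 33 were present and all passed the filter on low counts (filterByExpr of edgeR with a minimum count of 10). They were measured by m6A RNA immunoprecipitation sequencing (MeRIP-seq) in hippocampus of 12 mice in 3 groups of 4. In this assay poly(A) RNA is sequenced once as input and once after capture (IP) with an antibody to N6-methyladenosine, so that the input gives the transcript level and IP over input gives the enrichment of methylated transcripts. The groups were untreated wild-type mice and 5xFAD mice that received either vehicle or MS1262. The 5xFAD strain is a transgenic model of Alzheimer's disease whose transgenes are driven by the neuronal Thy1 promoter, and the wild-type mice were age matched. MS1262 is named in the series as an inhibitor of the histone methyltransferase G9a that reaches the brain; its dose and schedule were not given in the sources used here. Because the wild-type mice received no vehicle, genotype and dosing cannot be told apart in a comparison with wild-type.

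Macroautophagy encloses cytoplasmic cargo in a double membrane that closes and fuses with the lysosome. The ULK1 kinase complex starts the process, the class III PI3 kinase complex marks the forming membrane with PI3P, ATG9A vesicles and ATG2 supply lipid, and a conjugation system attaches LC3 and GABARAP proteins to the membrane, where receptors such as p62 (Sqstm1) tether cargo. In the brain the pathway is known for clearing aggregated protein and worn organelles, and G9a is known as a repressor of autophagy genes in other cells. The series thus allows the question whether G9a inhibition in vivo was accompanied by a different level or m6A enrichment of these transcripts.

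Input libraries held 20.7 to 43.2 M assigned reads (median 38.5 M) and IP libraries 3.98 to 48.6 M (median 24.3 M), the shallowest being the IP of vehicle animal 4. Markers of hippocampal neurons (Slc17a7, Prox1, Wfs1) were present in every input library. Summed microglial markers spanned 279 to 325 CPM (counts scaled to library size) in wild-type, 307 to 589 in vehicle and 411 to 495 in MS1262 input, with 3 of 7 called higher in each 5xFAD group against wild-type. Markers of plaque-associated microglia spanned 13.7 to 19.3, 32.0 to 193 and 84.4 to 164 CPM, with 4 and 5 of 5 called higher. Over all genes 1.57% and 1.3% were called in vehicle and MS1262 against wild-type. Of 5 inhibitory neuron markers 1 was called lower in each 5xFAD group, and of 5 astrocyte markers 1 was called higher in vehicle. The other marker lists held no called gene. Vehicle animal 3 stood apart, with 7032 CPM of the choroid plexus transcript Ttr (31.7 to 730 elsewhere) and 1.30 CPM of Xist (21.4 to 48.0 elsewhere). The Y-linked transcripts Ddx3y, Eif2s3y, Kdm5d and Uty were at 0 CPM in that animal and at most 0.098 CPM in any other. The labels call the 4 samples of a group biological replicates.

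TFEB, the transcription factor known as a master regulator of lysosomal and autophagy genes, and its relatives recognise an E-box with the core CACGTG, which reads the same on both strands. RefSeq promoter windows (GRCm38.p6, 250 bases before to 50 after the listed start) were matched for 26 members, with 27 windows. The core was found in 4 of these windows (14.8%), against 7.15% of 32851 windows of the same length over all genes. No window was matched for Rb1cc1, Becn1, Pik3c3, Atg12, Atg16l1, Map1lc3a and Wdfy3, so these members were not searched. The sites are shown because, of the 26 members searched, these held the core. The core alone does not single out TFEB. Each site is given 5′ to 3′ on the gene's strand, with the core in capitals.
Atg7, chr6:114670952-114670981, plus strand: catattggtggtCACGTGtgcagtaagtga
Atg5, chr10:44268313-44268342, plus strand: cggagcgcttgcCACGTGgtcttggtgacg
Atg14, chr14:47568418-47568447, minus strand: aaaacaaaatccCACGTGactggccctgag
Atg3, chr16:45158723-45158752, plus strand: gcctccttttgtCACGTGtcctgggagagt
Atg3, chr16:45158746-45158775, plus strand: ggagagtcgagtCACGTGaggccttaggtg
The core began 132 bases before the listed start for Atg7, 14 before it for Atg5, 1 before it for Atg14, and 94 and 71 before it for Atg3. The starts listed for Atg7 and Atg5 lie inside their RefSeq gene bodies, and so does the core of each. These matches are descriptions of sequence and not measured binding sites, and the 2 shares were not tested against each other.

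The members differed far more from each other than any of them differed between groups. On the TPM scale, which divides by transcript length and so allows levels of different genes to be compared, Map1lc3b, encoding the widely used autophagosome marker LC3B, was the highest in wild-type input at 748 ± 48.2 (SD, n = 4). The other Atg8-family members followed, with Gabarapl2 at 398 ± 40.8, Gabarap at 169 ± 12.1, Gabarapl1 at 121 ± 3.19 and Map1lc3a at 76.2 ± 8.04. Of the members with other roles, Sqstm1 at 163 ± 27.0 and Rb1cc1, the scaffold of the ULK1 complex, at 119 ± 25.4 lay among them.

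The remaining members lay below these. Becn1, the beclin 1 subunit of the PI3 kinase complex, reached 51.5 ± 10.3 TPM, and its catalytic partner Pik3c3 43.8 ± 2.08. Atg5, which is joined to ATG12 in the conjugation enzyme, reached 25.7 ± 2.09, Atg7, the E1-like enzyme of the system, 5.68 ± 2.08, Ulk1 5.22 ± 0.376 and the PI3P effector Wipi1 2.46 ± 0.490. Lowest were Ambra1 at 1.103 ± 0.177, Atg9a at 1.06 ± 0.615 and Atg2a at 0.717 ± 0.0752. Of the 32 pairs of neighbours in this order, 23 overlapped in their ranges over the 4 wild-type animals, so much of the order in the middle of the list is not resolved. The LC3 and GABARAP transcripts resemble each other in sequence, and the estimated counts depend on how shared reads were divided between them.

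**Figure D1:**
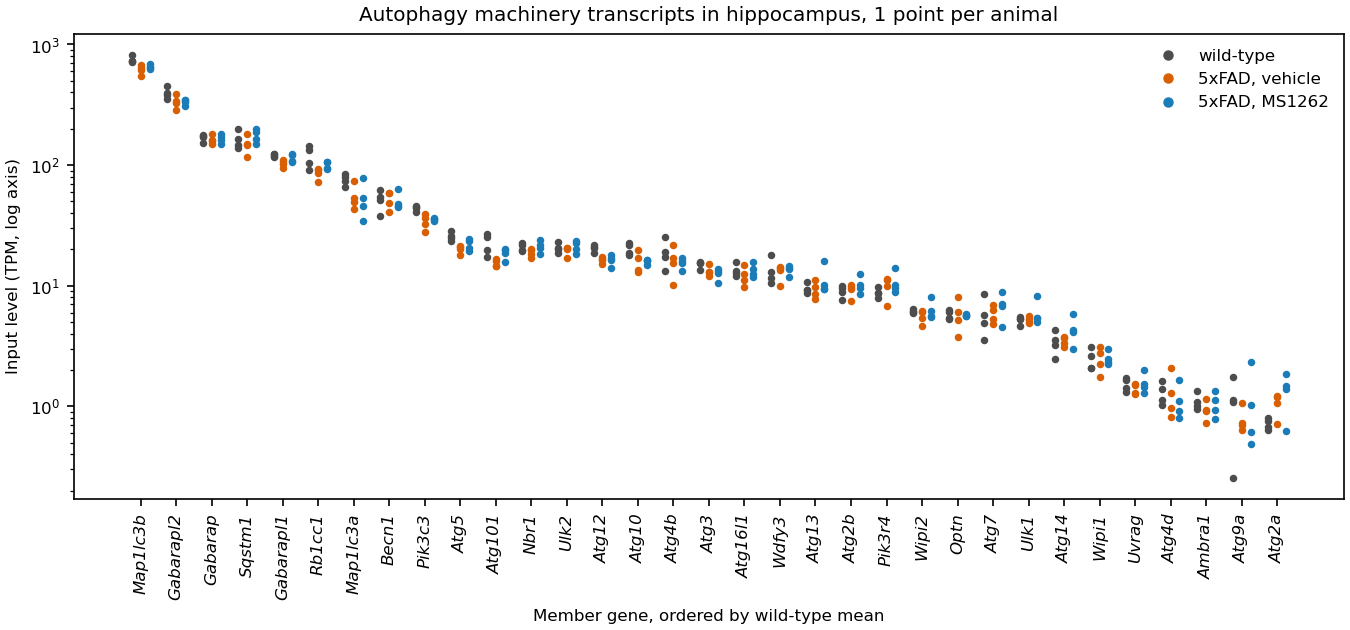
Input level of each of the 33 members in TPM (log axis), 1 point per animal, coloured by group and ordered by the wild-type mean. Levels run from 748 TPM for Map1lc3b to 0.717 TPM for Atg2a, and the 3 groups overlap for most genes.

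No member was called different in transcript level between 5xFAD vehicle and wild-type mice. With edgeR's quasi-likelihood test and Benjamini-Hochberg adjustment over all 17693 genes tested, 0 of 33 members passed an adjusted p of 0.05, where 1.57% of all genes did (278 genes, 187 higher and 91 lower in vehicle; 60 higher and 195 lower on the TPM scale). At an unadjusted p under 0.05 there were 2 members, both lower in vehicle, against a background of 12.8% of genes, and DESeq2 called 0 members. The median log2 difference was 0.02 over the members and 0.01 over all genes tested. Both depend on the scale. On the TPM scale the medians were -0.13 or -0.15 over the members and -0.09 or -0.14 over all genes (pseudocount 1 or 0.1). There limma gave an unadjusted p under 0.05 for 10 members, and the matching share of all genes was not counted. For 29 members the 95% interval lay within a 1.5-fold difference in either direction, and for 32 within 2-fold. Atg9a was the exception to the wider bound, with an interval from -1.27 to 0.80 on the log2 scale.

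The 4 members with the smallest p in that comparison came from different steps. Pik3c3, the lipid kinase VPS34, was at 134, 132, 126 and 124 CPM in the wild-type inputs and at 109, 111, 122 and 101.2 CPM in the vehicle inputs. All 4 vehicle values lay under the wild-type range, with a log2 difference of -0.22 (SE 0.083, edgeR adjusted p = 0.267). Atg101, a stabilising subunit of the ULK1 complex, was at 26.0, 26.3, 17.96 and 17.94 CPM in wild-type and at 16.3, 15.002, 17.1 and 20.5 CPM in vehicle. Vehicle animal 4 brought its ranges into overlap, the other 3 vehicle animals lay under every wild-type animal, and its log2 difference was -0.35 (SE 0.16, edgeR adjusted p = 0.361). Atg5 was at 50.1, 52.3, 59.0 and 48.6 CPM in wild-type and at 42.0, 44.2, 47.0 and 49.3 CPM in vehicle. Atg2b, a lipid transfer protein, was at 24.03, 18.7, 18.8 and 19.4 CPM in wild-type and at 25.5, 24.9, 23.2 and 22.3 CPM in vehicle. In both genes 1 animal brought the ranges into overlap, vehicle animal 4 for Atg5 and wild-type animal 1 for Atg2b. In bulk tissue such as this, fewer cells of a type and less RNA per cell cannot be told apart, and the part of the higher microglial markers in these values was not tested.

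Nor was any member called different between MS1262 and vehicle. The edgeR test called 0 of 33 members and 0% of all genes (0 of 17693). At an unadjusted p under 0.05 there was no member, against 5.67% of all genes, and DESeq2 called 0 members and 0 genes. The median log2 difference was 0.01 over the members and -0.01 over all genes. On the TPM scale it was 0.11 or 0.12 over the members and 0.06 or 0.10 over all genes (pseudocount 1 or 0.1). As in the previous comparison, 29 intervals lay within 1.5-fold and 32 within 2-fold. A change of Map1lc3b, for instance, was bounded between -0.20 and 0.17 on the log2 scale, of Becn1 between -0.10 and 0.21, of Sqstm1 between -0.12 and 0.35 and of Gabarapl1 between -0.15 and 0.24. The bounds were -0.23 and 0.26 for Ulk1, -0.20 and 0.23 for Atg5, -0.66 and 0.24 for Atg7, and -0.45 and 0.30 for Wipi1. These bounds are unadjusted 95% intervals.

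Even the members with the smallest p overlapped between MS1262 and vehicle. Gabarapl2, an Atg8-family protein also known as GATE-16, was at 300, 289, 328 and 281 CPM in vehicle and at 258, 267, 275 and 287 CPM in MS1262, with a log2 difference of -0.14 (SE 0.081, edgeR adjusted p = 0.863). Atg3, the E2-like enzyme for LC3, was at 24.2, 23.8, 28.5 and 28.1 CPM in vehicle and at 23.2, 24, 20.1 and 24.8 CPM in MS1262. Atg4b, the main LC3-processing protease, was at 31.6, 29.2, 36.3 and 36.4 CPM in vehicle and at 32.1, 31.0, 25.7 and 29.9 CPM in MS1262. Of the 4 MS1262 animals, 3 lay under the vehicle range for Gabarapl2 and 2 for Atg3, and the groups overlapped for all 3 genes. Rb1cc1 had the opposite sign, with 242, 195, 219 and 208 CPM in vehicle and 208, 256, 237 and 253 CPM in MS1262.

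Against wild-type, the MS1262 group again held no called member. The edgeR test called 0 of 33, where 1.3% of all genes passed (230 genes, 161 higher and 69 lower; 60 higher and 64 lower on the TPM scale). The unadjusted p was under 0.05 for 5 members, 1 higher and 4 lower, against a background of 14.3%, and DESeq2 called 0 members. The median log2 difference was 0.04 over the members and 0.00 over all genes. On the TPM scale it was -0.01 or -0.02 over the members and -0.03 or -0.05 over all genes (pseudocount 1 or 0.1). There limma gave an unadjusted p under 0.05 for 7 members, and the matching share of all genes was not counted. This comparison shares its wild-type animals with that of vehicle and its MS1262 animals with that against vehicle, so the 3 sets of values are not independent.

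Pik3c3 was at 98.4, 112, 116 and 107 CPM in MS1262, below all 4 wild-type animals, with a log2 difference of -0.25 (SE 0.083, edgeR adjusted p = 0.176). Atg12, the ubiquitin-like partner of ATG5, was at 93.3, 92.2, 82.5 and 82.5 CPM in wild-type, 75.2, 75.8, 77.5 and 86.0 CPM in vehicle and 74.2, 75.3, 79.1 and 64.7 CPM in MS1262. MS1262 lay below wild-type in every animal, and vehicle overlapped wild-type through animal 4 (MS1262 against wild-type log2 -0.26, SE 0.089, edgeR adjusted p = 0.196). Map1lc3a, the brain-enriched LC3A, was at 50.0, 44.2, 43.6 and 35.2 CPM in wild-type, 27.8, 29.1, 32.5 and 51.0 CPM in vehicle and 41.8, 32.0, 20.9 and 27.1 CPM in MS1262. Its estimate against wild-type was the lowest of the members at -0.50, but its spread was wide (SE 0.22, edgeR adjusted p = 0.301) and the groups overlapped. The remaining lower member at an unadjusted p under 0.05 was Gabarapl2, with a log2 difference of -0.19 (SE 0.081, edgeR adjusted p = 0.290). The 1 member higher at an unadjusted p under 0.05 was Atg14, the subunit that directs the PI3 kinase complex to autophagosome formation, at 8.04, 13.3, 10.5 and 10.5 CPM in wild-type and 17.4, 10.1, 14.4 and 13.7 CPM in MS1262.

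**Figure D2:**
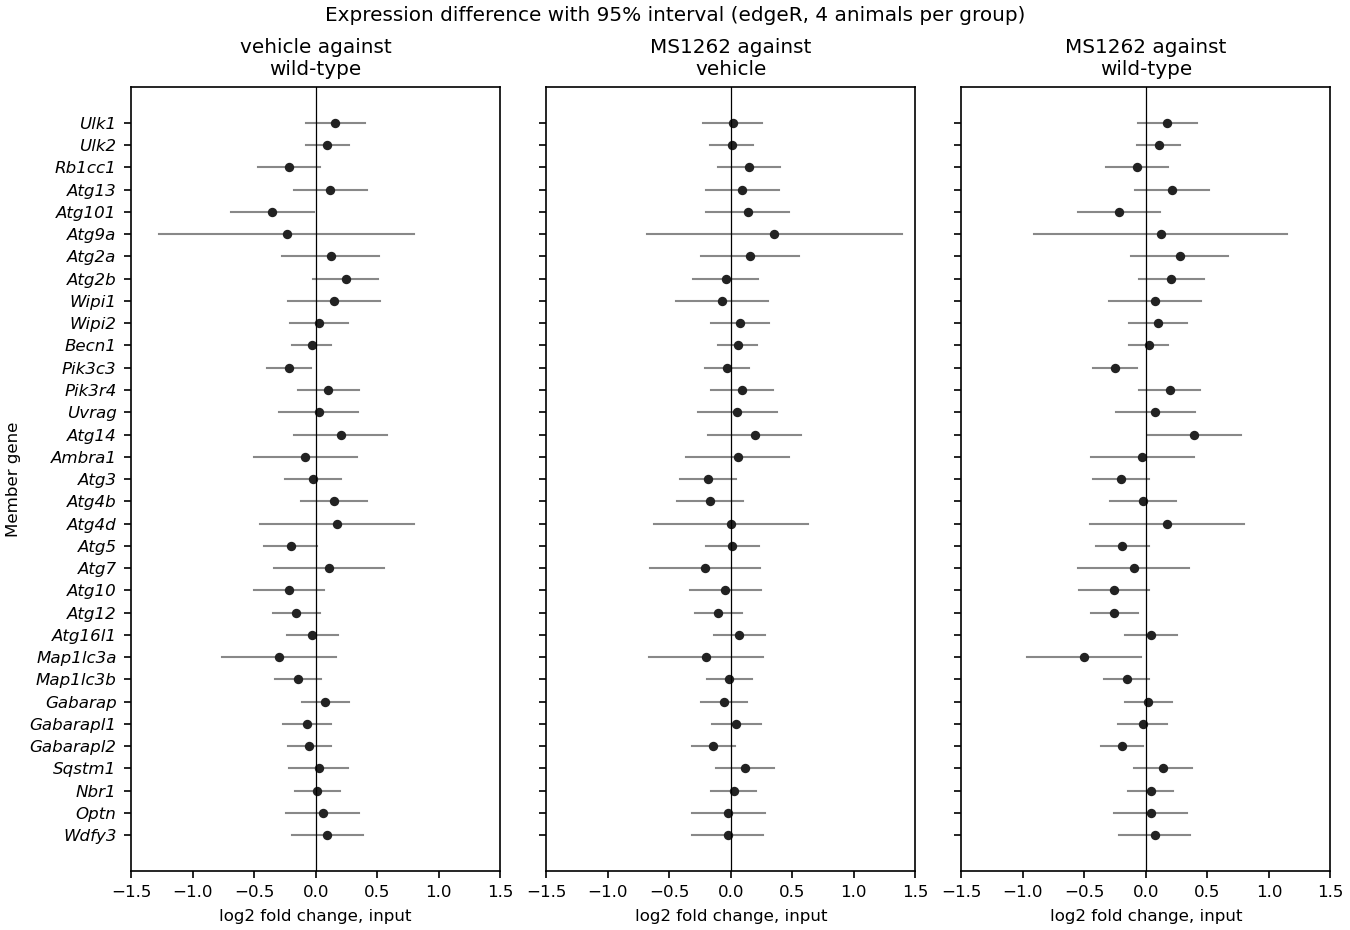
Log2 fold change of each member in input with its 95% interval (edgeR, 4 animals per group) in the 3 comparisons, members ordered by role from initiation at the top to cargo receptors at the bottom. None of the 33 members was called in any comparison, and Atg9a has the widest interval.

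No test of a joint shift by role was made. In MS1262 against vehicle the median log2 difference was 0.09 over the 5 initiation genes, 0.07 over the 5 membrane delivery genes, 0.06 over the 6 PI3 kinase genes, -0.07 over the 8 conjugation genes, -0.06 over the 5 Atg8-family genes and 0.00 over the 4 cargo receptors and adaptors. None of these 6 groups held a called gene. A further 56 autophagy-related genes, covering fusion, selective receptors, mTOR and AMPK signalling and transcription factors, gave 0 called genes in each of the 3 expression comparisons. The closest was Vamp8, a SNARE of membrane fusion, at a log2 difference of 0.75 (SE 0.18) in vehicle against wild-type with an edgeR adjusted p of 0.0535. DESeq2 called Vamp8 there, where it called 603 of 17307 genes. So did edgeR with no filter on low counts (345 of 29817 genes called) and without vehicle animal 2 (116 of 18175). DESeq2 also called the membrane protein Vmp1 in MS1262 against wild-type (log2 -0.40 and adjusted p = 0.105 in edgeR), where it called 642 of 16278 genes. In MS1262 against vehicle the log2 difference of Vamp8 was -0.59 (edgeR adjusted p = 0.848).

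Capture by the m6A antibody separated the members widely. Of 33 members 27 were called between IP and input with edgeR (animal as a block, 24 libraries), 12 higher and 15 lower in IP, where 55.9% of all 18300 genes tested were called, 28.2% higher and 27.7% lower. The median log2 IP over input was -0.06 over the members and 0.00 over all genes, so on this scale a value above 0 means more enrichment than the median gene and not methylation as such. The zero point depends on the scaling: on the TPM scale the median of all genes was itself 0.36 or 0.55 (pseudocount 1 or 0.1), and there 28 members were called, 26 higher and 2 lower. On those scales limma called 68.7% or 67.8% of all genes, 64.7% or 64.2% higher and 3.95% or 3.62% lower. Relative to the median gene, 20 of the 27 called members stayed on the same side on all 3 scales, 10 of the 12 higher and 10 of the 15 lower.

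The highest enrichment belonged to Atg9a, the transmembrane protein of the vesicles that seed the autophagosome. Its log2 IP over input was 1.93, 2.05, 3.84 and 1.57 in wild-type, 2.27, 2.43, 2.49 and 2.55 in vehicle and 1.06, 2.56, 2.41 and 3.10 in MS1262. It was enriched in all 12 animals (mean log2 2.29, SE 0.17), although its input held as few as 23.7 estimated counts in wild-type animal 3. Atg7 ranged from 0.91 to 2.00 over the 12 animals (mean log2 1.42, SE 0.084). Ambra1, an activator of the PI3 kinase complex, ranged from 0.41 to 1.84 (mean log2 1.04, SE 0.095), and Nbr1, a cargo receptor, from 0.67 to 1.104 (mean log2 0.83, SE 0.052). Together with Atg13 (0.60) and Atg14 (0.77), these 4 genes were above 0 in all 12 animals, and each stayed above the median gene on the TPM scale.

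At the other end, Rb1cc1 had the lowest value, between -2.23 and -0.72 (mean log2 -1.02, SE 0.10). Gabarap lay between -0.94 and -0.38 (mean log2 -0.70, SE 0.061), Sqstm1 between -0.98 and -0.19 (mean log2 -0.70, SE 0.068) and Map1lc3b between -0.85 and -0.23 (mean log2 -0.69, SE 0.053). These 4 were below 0 in all 12 animals and stayed below the median gene on the TPM scale. Ulk2 (-0.53) and Wdfy3 (-0.58), which encodes the aggregate-clearing adaptor ALFY, were also below 0 in every animal and below the median gene on the TPM scale. Becn1 was below 0 in every animal too (mean log2 -0.41) but lay above the median gene on the TPM scale, so its side depends on the scaling.

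Arranged by role, none of the 5 Atg8-family members was called higher in IP and 4 were called lower, all except Gabarapl1 (mean log2 -0.01); on the TPM scale, before the median gene was subtracted, Gabarapl1, Gabarapl2 and Map1lc3a lay above 0. The 5 membrane delivery genes went the other way, with 4 called higher and none lower, Wipi2 being the exception and Wipi1 reaching 0.21. The call of Wipi1 ended without wild-type animal 2 or 3, vehicle animal 2 or 4, or MS1262 animal 2, 3 or 4 (edgeR adjusted p up to 0.0876) and with no filter on low counts (0.0774). That of Atg2b ended without vehicle animal 3 or MS1262 animal 3 (edgeR adjusted p up to 0.0583), and Atg2b lay below the median gene on both TPM scales (-0.07 and -0.23). The PI3 kinase genes were split, 3 higher and 3 lower, as were the initiation genes, 2 higher (Atg13 and Atg101) and 2 lower (Rb1cc1 and Ulk2), with Ulk1 not called. The call of Pik3r4 ended without wild-type animal 1 or MS1262 animal 2 or 3 (edgeR adjusted p up to 0.0615), and that of Uvrag without wild-type animal 1 or 4 or vehicle animal 3 and with no filter. Of 8 conjugation genes 2 were higher (Atg7 and Atg4d), 4 lower and 2 not called, among them Atg5 (-0.03). The call of Atg4d ended without wild-type animal 2, vehicle animal 3 or MS1262 animal 4 (edgeR adjusted p up to 0.0744). It also ended without animal as a block (edgeR adjusted p = 0.0875). That of Atg12 ended without wild-type animal 1 or 4, vehicle animal 1 or 3, or MS1262 animal 1, 2 or 3 (edgeR adjusted p up to 0.113). The Atg12 call also ended without animal as a block and with no filter. On that unsubtracted TPM scale the 2 members called lower were Rb1cc1 and Sqstm1, and Becn1, Pik3c3, Atg3, Atg10 and Atg12 lay above 0.

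**Figure D3:**
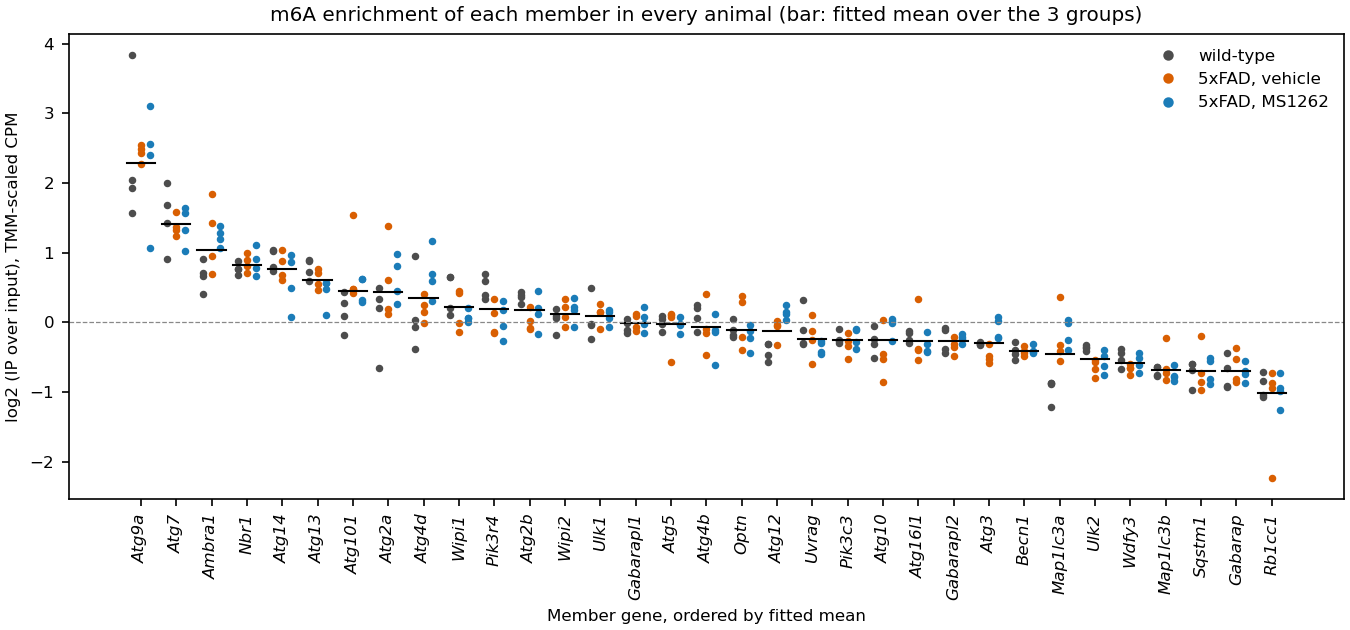
Log2 IP over input of every member in each of the 12 animals (points, coloured by group), with the fitted mean over the 3 groups as a bar and 0 as a dashed line. Members run from Atg9a at 2.29 to Rb1cc1 at -1.02, and the point of vehicle animal 4 lies apart for Rb1cc1 and Atg101.

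Among the other 56 autophagy genes, 45 were called between IP and input, 28 higher and 17 lower, where 55.9% of all genes were called, 28.2% higher and 27.7% lower. The largest values upward were those of Tfeb (log2 1.84), the mTOR complex subunit Mlst8 (1.49), the lysosomal adaptor Plekhm1 (1.138) and the ER-phagy receptor Tex264 (1.12). The largest downward were those of the ER-phagy receptor Retreg1 (-0.95), the transcription factor Foxo1 (-0.81), the membrane protein Vmp1 (-0.70) and Tecpr1 (-0.64), a tethering factor.

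m6A enrichment was called different from wild-type for 2 members in the MS1262 group and for none in the vehicle group. In MS1262 against wild-type, the interaction of IP with group in edgeR called Atg12 and Map1lc3a, both higher, where 1.24% of all genes were called (227 genes, 223 higher and 4 lower). At an unadjusted p under 0.05 there were 5 members, against 11.1% of genes. In vehicle against wild-type 0 members passed, where 0.989% of genes did (181 genes, 176 higher and 5 lower), and 7 members had an unadjusted p under 0.05, against 11.7%. In MS1262 against vehicle 0 members and 0% of genes were called (0 of 18300), and the 2 members with an unadjusted p under 0.05, Atg3 and Atg10, stood against 2.37% of genes. DESeq2 called 2, 1 and 0 members in these 3 comparisons, and 488, 491 and 2 genes.

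Atg12 had a log2 IP over input of -0.48, -0.32, -0.31 and -0.57 in wild-type, -0.05, 0.02, -0.04 and -0.33 in vehicle and 0.12, 0.14, 0.03 and 0.25 in MS1262. MS1262 lay above wild-type in every animal, and vehicle animal 4 fell among the wild-type values. Scaled over all 24 libraries, its input was at 102.0, 102.4, 89.5 and 89.7 CPM in wild-type and 80.9, 81.6, 86.1 and 70.6 CPM in MS1262. Its IP was at 73.3, 82.1, 72.2 and 60.3 CPM in wild-type and 87.7, 90.1, 87.9 and 83.9 CPM in MS1262. The IP was thus higher and the input lower in every MS1262 animal than in every wild-type animal. The enrichment differed by log2 0.56 (SE 0.12, edgeR adjusted p = 0.0333) in MS1262 and by 0.33 (SE 0.12, edgeR adjusted p = 0.301) in vehicle against wild-type.

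Map1lc3a had a log2 IP over input of -0.89, -0.87, -1.22 and -0.87 in wild-type, -0.32, -0.56, -0.41 and 0.37 in vehicle and -0.26, -0.39, 0.03 and -0.01 in MS1262. All 8 5xFAD animals lay above the 4 wild-type animals. Its IP level alone overlapped between groups, at 29.5, 26.8, 20.4 and 21.0 CPM in wild-type and 38.2, 26.4, 23.2 and 29.5 CPM in MS1262. Its input, scaled over all 24 libraries, was at 54.7, 49.1, 47.3 and 38.3 CPM in wild-type and 45.6, 34.7, 22.8 and 29.6 CPM in MS1262. The ratio differed more cleanly than either of its parts, by log2 0.80 (SE 0.18, edgeR adjusted p = 0.0380) in MS1262 and 0.72 (SE 0.18, edgeR adjusted p = 0.0816) in vehicle against wild-type.

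Both calls were at the edge of the test. Leaving out any 1 of the 8 MS1262 and wild-type animals ended each of them, with edgeR adjusted p values from 0.0551 to 0.155 for Atg12 and from 0.0626 to 0.144 for Map1lc3a, and both ended on the TPM scale. Without vehicle animal 4, whose IP was the shallowest, both genes were called in vehicle against wild-type as well, with edgeR adjusted p values of 0.0277 for Atg12 and 0.0421 for Map1lc3a. That omission raised the calls over all genes too, to 408 of 18589 from 181 of 18300. No member was called for a difference between MS1262 and vehicle, where the estimates were 0.23 (SE 0.12) for Atg12 and 0.08 (SE 0.18) for Map1lc3a. Summed microglial markers also stood higher in the IP libraries of MS1262 (608 to 779 CPM) than of wild-type (377 to 438 CPM), and their part in the result was not tested.

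**Figure D4:**
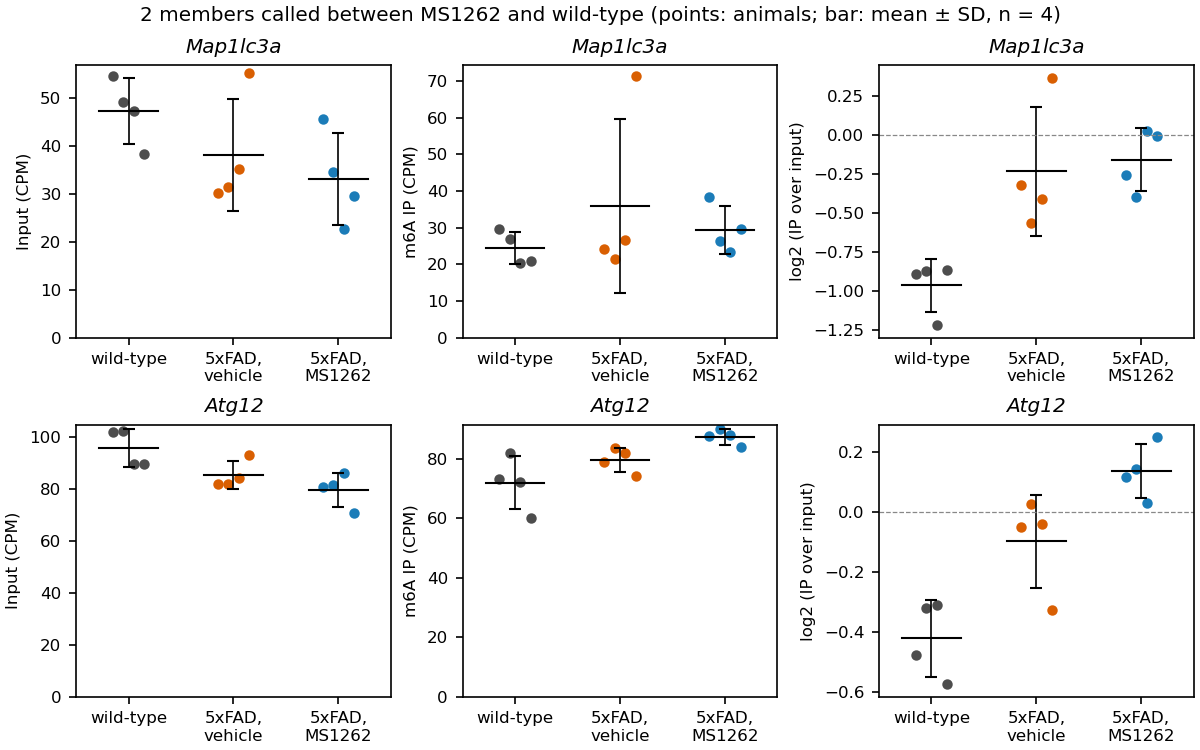
Input level, m6A IP level (both in CPM scaled over all 24 libraries) and log2 IP over input of Map1lc3a and Atg12 in each animal, with mean ± SD (n = 4). For both genes every MS1262 ratio lies above every wild-type ratio, and the vehicle value of animal 4 lies apart from the other 3.

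The other members with the smallest p did not pass. Pik3r4, the regulatory subunit VPS15, had a log2 IP over input of 0.69, 0.39, 0.33 and 0.60 in wild-type, 0.13, -0.15, -0.16 and 0.34 in vehicle and -0.27, 0.31, 0.17 and -0.05 in MS1262. MS1262 lay below wild-type in every animal (log2 -0.46, SE 0.16, edgeR adjusted p = 0.226). Ambra1 had values of 0.90, 0.71, 0.66 and 0.41 in wild-type and 1.20, 1.07, 1.28 and 1.38 in MS1262, which did not overlap (log2 0.56, SE 0.23, edgeR adjusted p = 0.338). Atg101 in vehicle against wild-type (log2 0.58, SE 0.22, edgeR adjusted p = 0.307) rested in part on animal 4, with -0.18, 0.08, 0.43 and 0.27 in wild-type and 0.47, 0.48, 0.43 and 1.55 in vehicle.

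Between MS1262 and vehicle the smallest p values belonged to conjugation genes. Atg3 had a log2 IP over input of -0.53, -0.59, -0.49 and -0.31 in vehicle and 0.02, -0.21, 0.07 and -0.23 in MS1262, without overlap (log2 0.40, SE 0.13, edgeR adjusted p = 1). Atg10, the E2-like enzyme that joins ATG12 to ATG5, had -0.45, 0.03, -0.53 and -0.86 in vehicle and 0.04, 0.02, -0.01 and -0.28 in MS1262. Atg4d, an LC3 protease, had 0.25, -0.01, 0.40 and 0.15 in vehicle and 0.30, 0.60, 0.69 and 1.16 in MS1262. The last 2 overlapped between the groups. For the members named most often in this pathway, the MS1262 against vehicle difference in enrichment was -0.14 (SE 0.13) for Map1lc3b, 0.00 (SE 0.17) for Sqstm1, 0.03 (SE 0.11) for Becn1, -0.03 (SE 0.15) for Ulk1, 0.01 (SE 0.15) for Atg5, 0.01 (SE 0.20) for Atg7, 0.02 (SE 0.12) for Gabarapl1 and -0.07 (SE 0.20) for Wipi1. For 24 of the 33 members the 95% interval lay within 1.5-fold, and for 31 within 2-fold.

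Of the other 56 autophagy genes edgeR called 1 for a group difference in enrichment, where it called 0.989% of all genes in vehicle against wild-type and 1.24% in MS1262 against wild-type. DESeq2 called 4 in vehicle against wild-type (Pink1, Rab7, Vcp and Zfyve1) and 4 in MS1262 against wild-type (Calcoco1, Rab7, Tex264 and Vcp). Over all genes DESeq2 also called more than edgeR, with 491 of 14397 and 488 of 16171 in these 2 comparisons. Pink1, the mitochondrial kinase that initiates mitophagy, had a log2 IP over input of -0.41, -0.19, -0.47 and -0.25 in wild-type, 0.20, 0.22, 0.17 and 0.81 in vehicle and 0.03, 0.07, 0.11 and 0.20 in MS1262. It was higher in every vehicle than in every wild-type animal (log2 0.68, SE 0.15, edgeR adjusted p = 0.0365). Omitting 1 wild-type animal, whichever of the 4, or vehicle animal 1 or 2 ended the call (edgeR adjusted p up to 0.150). It also ended on the TPM scale and without animal as a block, a fit that ignores the pairing of input and IP (edgeR adjusted p = 0.83).

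Peaks that the authors called in each animal (MACS2, IP against its own input, GRCm38) fell within some of the members. Because the extraction protocol names no RNA fragmentation, the positions below are those of called peaks and may not locate m6A within a transcript. A gene counted as holding a peak when at least 1 base of a deposited peak lay in its RefSeq gene body. A peak in at least 3 of 4 animals was found for 3 members among wild-type mice, where 9.9% of 16879 genes had one. The vehicle group gave 6 members (11.8% of genes) and the MS1262 group 8 (14.5% of genes). Over all 12 animals 18 members held a peak at least once and 15 never did. The number of peaks per animal ran from 6182 to 10750, so a gene's count also moves with how many peaks were called in all. The 3 wild-type members were Atg13, Gabarapl1 and Nbr1, which were joined in vehicle by Atg101, Atg7 and Sqstm1 and in MS1262 also by Atg9a and Atg12.

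Nbr1 was the only member with a peak in all 12 animals. It held 2 regions present in each of them, chr11:101569216-101569876 with a fold enrichment of 1.99 to 3.70 as given by the authors' caller, and chr11:101574940-101575482. Atg13 had a peak in 11 animals at chr2:91675363-91676468, whose summits lay 96.2% along the gene from its 5′ end. Atg7 (chr6:114858919-114859644, 6 animals) and Atg14 (chr14:47541091-47543050, 6 animals) also had theirs near the 3′ end, at 99.3% and 95.3% of the gene. Atg101 and Gabarapl1 held a region near the 5′ end as well as others. The region of Atg101 at chr15:101284323-101284604 lay 152 bases from the gene start and was called in 1 wild-type, 3 vehicle and 4 MS1262 animals. That of Gabarapl1, chr6:129533224-129533674, lay 249 bases from the start in 8 animals. Atg101 also had regions at 93.3% of the gene in 4 animals and at 41.3% in 3, and Gabarapl1 at 90.1% in 6 animals and at 97.1% in 1. The Sqstm1 region chr11:50207063-50207761 was within the gene at 32.4% of its length in 7 animals.

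Atg12, 1 of the 2 members with a called difference, had a peak in no wild-type animal, 1 vehicle animal and 3 MS1262 animals, at chr18:46733837-46734502 with a median fold of 1.37. Map1lc3a, the other, had no peak in any animal, and neither did Rb1cc1, Wdfy3, Pik3c3 or Ambra1. Of the genes with the highest IP over input, Atg9a had a peak in 5 animals and Atg7 in 8, so enrichment over the whole transcript and a called peak did not always go together. In vehicle animal 4, whose IP was the shallowest, Map1lc3b held 7 peaks and Gabarapl2 held 3. Map1lc3b also held 1 peak in wild-type animal 1 and 2 in wild-type animal 4. Vehicle animal 4 was the only 1 of 12 animals with a Gabarapl2 peak. Another gene lies over the gene body of 14 members, among them Becn1 (Cntd1), Atg12 (Ap3s1), Map1lc3b (Zcchc14) and Atg4d (Kri1), and the SMART-seq libraries do not mark strand, so reads and peaks there cannot be assigned to 1 gene with certainty.

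**Figure D5:**
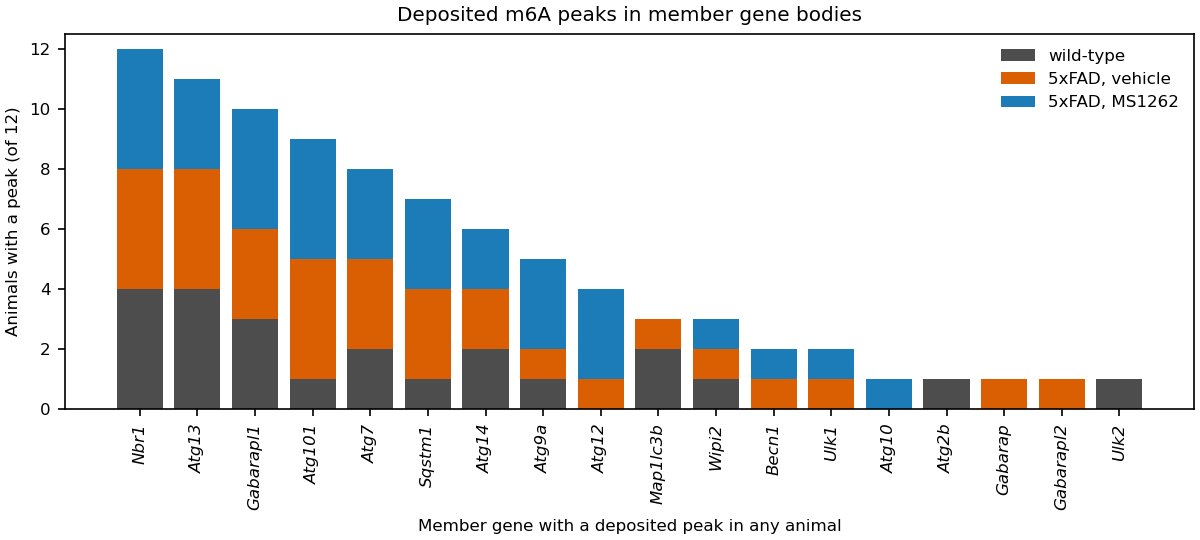
Number of animals (of 12) with at least 1 deposited peak in the gene body of each of the 18 members that held any, stacked by group. Nbr1 holds a peak in all 12 animals and Atg13 in 11, and Atg12 holds none in wild-type.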

How the data were processed

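Input and m6A IP libraries of 12 hippocampi were quantified per gene by the authors as estimated counts and TPM in deposited tables; GRCm38, Salmon 1.4.0, STAR 2.7.6a, Trimmomatic 0.32, MACS2 2.1.2, SAMtools 1.10 and bcl2fastq 2.17.1.14 are listed in the submitters' processing notes. Per the file headers, MACS2 called peaks per animal, and its fold enrichment and −log10 q-values are the authors'. The extraction protocol names no RNA fragmentation. Here estimated counts were rounded (22.1% of nonzero values were not whole) and tested with edgeR 4.0.16 (R 4.3.3): TMM scaling, filterByExpr (minimum count 10), quasi-likelihood F test, Benjamini-Hochberg over all genes, adjusted p under 0.05. Expression used 12 inputs and enrichment used 24 libraries with animal as a block (9 residual degrees of freedom each). Input and IP were assigned to an animal by the group and replicate number in their titles. As a check, with values centred within each group, each input correlated best with its own IP in 12 of 12 cases (r from 0.19 to 0.43). CPM in the expression comparisons is scaled over inputs. Alternatives used DESeq2 1.42.0 and limma 3.58.1 on log2(TPM + 1) and log2(TPM + 0.1). The scripts were also run on simulated counts, and the share of changed genes recovered there is not reported here. Values were named for 8 fixed members, members called or with the 4 smallest p per comparison, and the 4 largest IP changes each way; Atg13, Atg14, Ulk2, Wdfy3, Vamp8 and others outside that rule were named after their values were seen. The members and lists were chosen with earlier results of these data known. Intervals cover the spread between these animals.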

Additional observations from a re-analysis of the deposited data

Results flagged for a closer look

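Over 198 groups of 4 values (33 members, input level and log2 IP over input, 3 groups) 8 held an animal far from the other 3 by Dixon's criterion, which chance alone passes in about 1 group of 20. Of these, 5 concerned vehicle animal 4, the animal with the shallowest IP. It had 33.6 CPM of Ulk1 in input against 26.5 to 26.6 in the other vehicle animals, and 4.74 CPM of Atg9a against 2.75 to 2.82. Its log2 IP over input was -2.23 for Rb1cc1 against -0.94 to -0.72, 1.55 for Atg101 against 0.43 to 0.48, and -0.57 for Atg5 against 0.08 to 0.12. The others were Atg2b in the input of wild-type animal 1 (24.03 CPM against 18.7 to 19.4), Atg10 in MS1262 animal 4 (log2 IP over input of -0.28 against -0.01 to 0.04) and Map1lc3a in wild-type animal 3 (-1.22 against -0.89 to -0.87).

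A group difference in enrichment passed the interaction test in edgeR for Atg12 (log2 0.56) and Map1lc3a (log2 0.80) in MS1262 against wild-type and for Pink1 (log2 0.68) in vehicle against wild-type.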

How the results depend on the processing

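The count of 0 called members in all 3 expression comparisons held under DESeq2, DESeq2 size factors, no filter, both TPM scales, a fit of the 2 groups alone, a replicate block and every single omission. Replicate numbers did not pair animals across groups (correlations of -0.087 to 0.043), and with the replicate block the called genes numbered 134, 0 and 168. Over the alternatives other than omissions all-gene calls ran from 118 to 603 for vehicle against wild-type and from 124 to 642 for MS1262 against wild-type; over omissions from 108 to 297 and from 105 to 174, with 0 to 2 against vehicle.

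For enrichment in MS1262 against wild-type the 2 called members became 1 with DESeq2 size factors. They became 0 on both TPM scales, without animal as a block and in every single omission (0 to 0). Called genes ran from 0 to 502, and over omissions from 58 to 180. In vehicle against wild-type the 0 became 1 with DESeq2 and with no filter, and 0 to 2 over omissions (2 without vehicle animal 4). Called genes ran from 0 to 491, and over omissions from 33 to 408 (408 without vehicle animal 4). Against vehicle, called genes ran from 0 to 42 with no member. IP against input gave 24 to 28 called members, 23 to 26 over omissions, and 25 without animal as a block. The 28 on the TPM scale lacked Gabarap, Map1lc3a, Map1lc3b, Ulk2 and Wdfy3 and added Ulk1, Wipi2, Atg4b, Atg5, Gabarapl1 and Optn. The cause was not tested.

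On the TPM scale with pseudocounts 1 and 0.1, IP over input changed sign for 15 members and Tecpr1: Atg10 0.49 and 0.51, Atg12 0.48 and 0.50, Atg3 0.32 and 0.34, Atg4b 0.74 and 0.77, Atg5 0.59 and 0.61, Becn1 0.69 and 0.70, Gabarapl1 0.64 and 0.64, Gabarapl2 0.33 and 0.33, Map1lc3a 0.17 and 0.17, Pik3c3 0.37 and 0.38, Atg16l1 0.37 and 0.39, Optn 0.48 and 0.54, Uvrag 0.28 and 0.42, Ulk2 0.13 and 0.13, Wdfy3 0.085 and 0.091, and Tecpr1 0.038 and 0.042.

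Members with a peak numbered 3 in wild-type, and 3 to 6 over omissions, where a peak was also required in fewer animals. With a peak required in all 4 animals they numbered 3 rather than 6 in vehicle and 3 rather than 8 in MS1262. The IP of vehicle animal 4, at 3.98 M reads, limits enrichment values for low genes in that group.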
